A study of Mus musculus with 36 samples.

Results

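Sacubitril/valsartan (Sac/val) was set against valsartan alone (Val) in the ligated left carotid artery of C57BL/6 mice, 14 days after the operation, to show what adding a neprilysin inhibitor to an angiotensin receptor blocker did to the RNA of the injured vessel. The 12 libraries used were all C57BL/6 libraries of these treatments, chosen by strain and treatment alone, out of 36 in the series. Sac/val was dosed at 60 mg/kg/day and Val at 27 mg/kg/day; the labels do not give how much valsartan the combination supplied, so the difference covers the whole change of drug. Each treatment had 3 mice on a prophylactic regimen (16 days of drug, starting 2 days ahead of ligation) and 3 on a therapeutic regimen (7 days, starting 7 days after it). All 12 carotids were ligated, the strain is written C57BL/6J in the protocol, and the labels give no age. The series also holds 6 C57BL/6 libraries from mice given vehicle (2 mL/kg/day) and 18 libraries of strain 129X1/SvJ (129X1), which are used here only where named. One library is 1 artery of 1 mouse, and p-values measure the spread among these mice.

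Neprilysin, encoded by Mme, is a membrane peptidase that cuts natriuretic peptides, bradykinin, adrenomedullin, substance P and other small peptides outside the cell. Sacubitril is a prodrug whose product blocks it. Natriuretic peptides act in smooth muscle and endothelium through the guanylyl cyclase receptors Npr1 and Npr2 and cyclic GMP, while Npr3 removes them. Angiotensin II, which neprilysin also cuts, contracts and remodels arteries through the type 1 receptor that valsartan blocks. In a carotid with its flow stopped, smooth muscle cells leave the contractile state, the wall gains matrix and leukocytes enter.

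No gene passed edgeR's test of Sac/val minus Val, and 4 passed DESeq2's. Across 17177 of 49568 gene symbols that had enough counts to be tested, 0 (0%) reached an adjusted p below 0.05 in edgeR's quasi-likelihood test with regimen as a covariate and Benjamini-Hochberg adjustment, and the smallest adjusted p was 0.320. At an unadjusted p below 0.05, 1100 genes (6.4%) were higher in Sac/val and 1554 (9.05%) were lower. With DESeq2's Wald test, 4 of 16623 genes (0.0241%) passed: Myh8 was higher, and Capn11, Ighv14-3 and Igkv1-110 were lower. They were singled out after their values were seen. Myh8, a developmental myosin of skeletal muscle, ran from 0.291 to 157 CPM in Sac/val and from 0.0400 to 1.24 CPM in Val, a log2 difference of 4.66 (DESeq2 adjusted p = 0.0458). Its mean over the 12 libraries was only 15.3 CPM, beside the highest value of 157 CPM. The edgeR difference of 4.74 ran from 3.12 to 6.14 when each library was left out in turn. It was 6.33 without the 5 libraries high in the skeletal muscle actin Acta1, described below. With scores of the thymocyte, skeletal muscle and adipocyte gene lists as covariates it was 4.03. Capn11, a calpain, averaged 0.0426 CPM in Sac/val and 2.27 CPM in Val (-5.56, DESeq2 adjusted p = 0.0458). Igkv1-110 averaged 0.605 CPM in Sac/val and 7.30 CPM in Val (-4.80, DESeq2 adjusted p = 0.0435), and Ighv14-3 was at 0 in all Sac/val libraries and averaged 3.01 CPM in Val; both are antibody segments whose near-identical family members can share reads. Levels are in CPM, counts scaled to a common library total after TMM, and differences are log2 of Sac/val over Val.

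**Figure D1:**
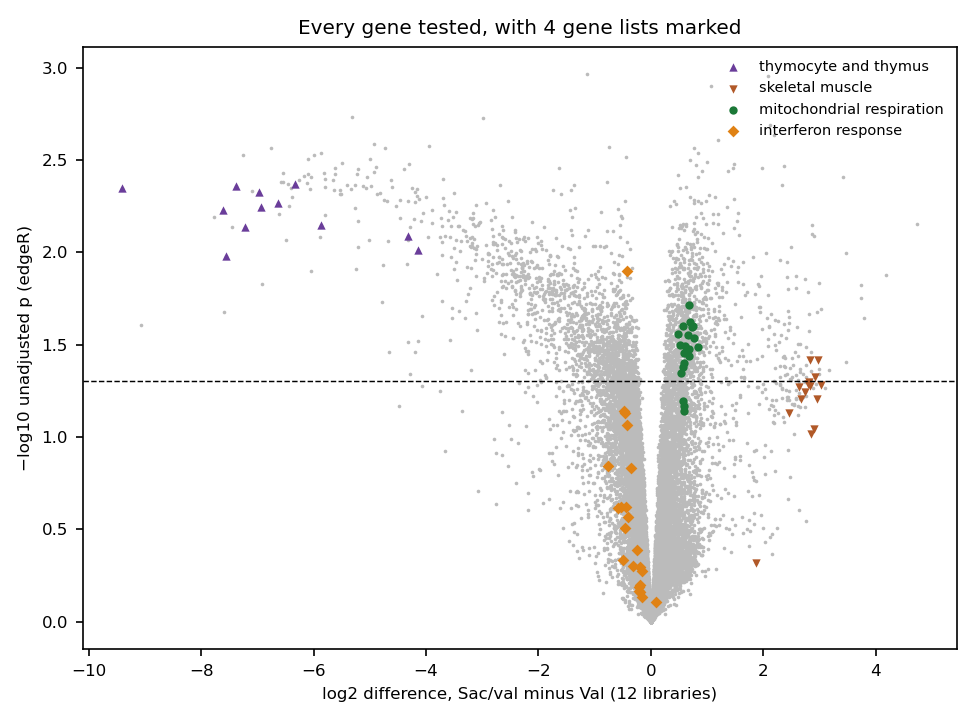
Each point is 1 of the 17177 genes, with the log2 difference of Sac/val minus Val on the x axis and the negative log10 of the unadjusted edgeR p on the y axis; the dashed line is the unadjusted threshold of 0.05 and coloured points are members of 4 gene lists. Points above the line lie on both sides of 0, with thymocyte genes far to the left and none passing after adjustment.

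The median difference over all tested genes was -0.01, with 8314 genes above 0 and 8863 below. The median half-width of the 95% interval was 0.57, so for a typical gene a smaller difference could not be told from 0 with this number of arteries. Depth was even: the 12 libraries held 18962081 to 28967579 counts (median 23550460). Mitochondrially encoded genes took 3.37 to 10.9% of counts in Sac/val libraries (median 6.95%) and 3.31 to 7.94% in Val libraries (median 4.36%). All 12 libraries expressed Myh11, the smooth muscle myosin that marks arterial media, at 211 to 360 CPM in Sac/val and 170 to 599.9 CPM in Val.

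Several arteries also held RNA of neighbouring tissues, and these did not fall evenly on the 2 drugs. Rag1, which is needed to rearrange antigen receptor genes in immature lymphocytes, was at 1691 CPM in prophylactic Val library 1 and 916 CPM in therapeutic Val library 1; the 6 Sac/val libraries held 0.0811 to 7.95 CPM and the other 4 Val libraries 0.244 to 7.42 CPM. The summed level of the 15 thymocyte and thymus genes was 30.1 to 88.9 CPM in Sac/val, and 25.9 to 11274 CPM in Val. Its defining genes Ptcra and Foxn1 reached 0.255 and 0.228 CPM at most in Sac/val, against 41.7 and 49.8 CPM in Val. Tg, thyroglobulin, was at 2581 CPM in prophylactic Val library 2 and 4630 CPM in therapeutic Val library 1, and between 0.771 and 21.7 CPM in Sac/val. Acta1, the actin of skeletal muscle, passed 1000 CPM in 4 Sac/val libraries (5411, 5238, 4454 and 1922 CPM) and in 1 Val library (2113 CPM). Vehicle arteries varied in the same way: 2 of the 6 had Rag1 at 789.8 and 130.1 CPM, and 1 had Tg at 41069 CPM. Acta1 passed 1000 CPM in 4 vehicle arteries (1542, 1230, 3479 and 1688 CPM) and was at 81 and 682 CPM in the others. In bulk tissue, fewer cells of a type and less RNA per cell cannot be told apart.

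**Figure D2:**
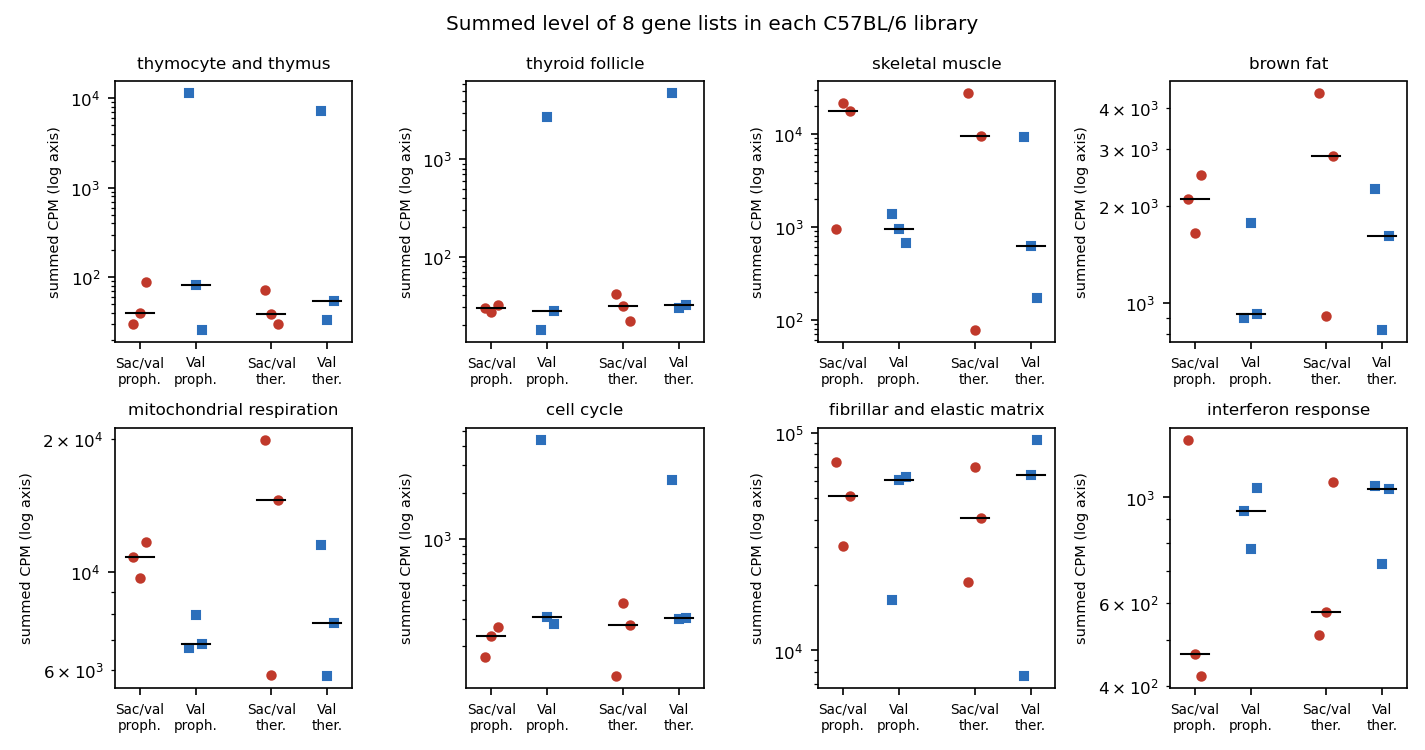
Summed CPM of 8 gene lists (log axis) in each of the 12 libraries, with Sac/val left of Val within each regimen; each point is 1 artery and the bar is the median of 3. The Val arteries numbered 1 stand far above the rest for thymocyte and cell cycle genes, and 4 Sac/val arteries are above every Val artery for skeletal muscle genes.

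Mme itself, on chromosome 3 (63241537 to 63386030, GRCm38, plus strand), had 67.2, 39.3 and 54.7 CPM in the prophylactic and 125, 31.4 and 101 CPM in the therapeutic Sac/val arteries. In Val arteries it had 26.8, 40.5 and 40.2 CPM under the prophylactic and 57.8, 33.3 and 45.7 CPM under the therapeutic regimen. Of the 6 Sac/val libraries, 3 were above every Val library and 3 lay within the Val range. The log2 difference was 0.75 (SE 0.30, 95% interval 0.09 to 1.41, unadjusted p = 0.0296, adjusted p = 0.320 in edgeR), with 0.59 in the prophylactic and 0.91 in the therapeutic regimen. Vehicle arteries spanned 19.3 to 67.7 CPM. The 3 Sac/val libraries highest in Mme were among the 5 highest of the 12 for brown fat genes, and with scores of the thymocyte, skeletal muscle and adipocyte lists as covariates the difference was -0.01. It was 0.74 without the 2 libraries high in Rag1 and 0.40 without the 5 high in Acta1. Leaving out each library in turn gave 0.61 to 0.92. The inhibitor blocks the enzyme rather than its transcript, and enzyme activity was not measured.

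Among 38 genes of neprilysin, related peptidases and their substrates, 32 were tested, of which 0 passed, 18 were higher and 14 lower in Sac/val, with a median of 0.06. Adm, the precursor of the vasodilator adrenomedullin, averaged 10.3 ± 2.46 CPM in Sac/val and 9.94 ± 2.97 CPM in Val (SD, n = 6 each). Edn1, the precursor of the constrictor endothelin-1, averaged 10.8 ± 5.30 CPM in Sac/val and 11.0 ± 2.56 CPM in Val. Their log2 differences were 0.05 (95% interval -0.48 to 0.57) and -0.05 (95% interval -0.71 to 0.61). In the prophylactic regimen they were 0.22 for Adm and 0.34 for Edn1, and in the therapeutic regimen -0.13 and -0.45. That of Adm was -0.12 without the 2 libraries high in Rag1, and that of Edn1 was 0.40 without those high in Acta1. Bdkrb2, the bradykinin B2 receptor, had 1.06 to 1.88 CPM (median 1.48) in Sac/val and 0.250 to 2.08 CPM (median 0.838) in Val, a difference of 0.51 (SE 0.43). Tac1, which encodes substance P, was near the floor in both, with medians of 0.209 CPM in Sac/val and 0.212 CPM in Val.

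Calca and Ramp1 of that list had their highest values in libraries with other tissue. Calca, which encodes calcitonin and the vasodilator CGRP, had 1.94 to 3.81 CPM in Sac/val and 1.02 to 17.5 CPM in Val. The highest value came from therapeutic Val library 1, which held thyroid RNA. The other library high in Tg, prophylactic Val library 2, had 3.16 CPM, inside the Sac/val range. The difference of -0.73 (SE 0.64) became 0.24 without the 2 libraries high in Tg. With all libraries it was 0.10 in the prophylactic and -1.54 in the therapeutic regimen. Ramp1, a partner of the CGRP receptor, had 14.8 to 30.8 CPM in Sac/val, against 123 and 92.0 CPM in the 2 Val libraries high in Rag1 and 14.9 to 24.3 CPM in the other 4. Its difference was -1.16 (SE 0.55, unadjusted p = 0.0566 in edgeR) with all 12 libraries and 0.16 without those 2.

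Of 24 natriuretic peptide and cyclic GMP genes, 19 were tested, 0 passed, 14 were higher and 5 lower in Sac/val, with a median of 0.08. The ligands were hardly transcribed in the artery: Nppa and Nppb, the atrial and brain peptides, did not exceed 0.0911 CPM in any of the 12 libraries and were not tested, and Nppc, the C-type peptide of endothelium, had a median of 0.187 CPM in Sac/val and 0.211 CPM in Val. The guanylyl cyclase receptors were well expressed. Npr1, the receptor of the atrial and brain peptides, ran from 74.3 to 122 CPM (median 91.0) in Sac/val and 49.8 to 122 CPM (median 95.2) in Val, with a difference of 0.06 (SE 0.23, 95% interval -0.45 to 0.56), or -0.17 without the 2 libraries high in Rag1. Npr2, the receptor of the C-type peptide, ran from 63.4 to 96.4 CPM (median 90.1) in Sac/val and 30.2 to 103.6 CPM (median 81.2) in Val, with 0.23 (SE 0.26), or -0.07 without those libraries.

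Npr3, the clearance receptor, on chromosome 15 (11839896 to 11907287, minus strand), was the member of this list with the smallest p. It had 20.1, 14.5 and 19.1 CPM in prophylactic and 35.0, 8.93 and 24.9 CPM in therapeutic Sac/val arteries, against 8.36, 8.69 and 10.9 CPM and 21.6, 7.47 and 15.2 CPM in the matching Val arteries. The prophylactic groups did not overlap and the therapeutic groups did. The difference was 0.79 (SE 0.32, 95% interval 0.08 to 1.502, unadjusted p = 0.0326, adjusted p = 0.320 in edgeR), and 0.17 with the 3 tissue scores as covariates. Downstream, Prkg1, the cyclic GMP-dependent kinase, differed by 0.31 (SE 0.30). The phosphodiesterases that break down cyclic GMP lay on both sides of 0: Pde2a had medians of 82.8 CPM in Sac/val and 72.9 CPM in Val (0.32, SE 0.17), and Pde5a had 33.8 CPM in Sac/val and 40.1 CPM in Val (-0.23, SE 0.27).

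The renin-angiotensin list had 16 of its 19 genes tested, with 0 passing, 10 higher and 6 lower in Sac/val and a median of 0.20; without the 2 libraries high in Rag1 the median was -0.10. Ace, which makes angiotensin II, had a median of 334 CPM in Sac/val and 368 CPM in Val (-0.04, SE 0.41). Agtr1a, the main mouse type 1 receptor and the target of valsartan in both drugs, ran from 6.94 to 13.7 CPM (median 10.1) in Sac/val and 4.02 to 10.9 CPM (median 8.73) in Val. Its difference was 0.42 (SE 0.29, 95% interval -0.22 to 1.06, unadjusted p = 0.176 in edgeR). The 2 lowest values, 4.02 and 4.51 CPM, came from the 2 Val arteries high in Rag1, and without them the difference was 0.12. Agtr1b did not exceed 0.325 CPM in either group and was not tested. Agt, angiotensinogen, had a difference of 0.53 (SE 0.36) at medians of 2.88 CPM in Sac/val and 2.38 CPM in Val. Ren1, renin, had 1.08 (SE 0.68) at medians of 0.620 CPM in Sac/val and 0.595 CPM in Val. By regimen, Ren1 differed by 0.10 (SE 0.82) in the prophylactic and 2.25 (SE 0.91) in the therapeutic one. Lnpep, an angiotensin IV-binding aminopeptidase, had 8.91 ± 2.26 CPM in Sac/val and 11.6 ± 4.41 CPM in Val (SD, n = 6 each), with -0.39 (SE 0.26).

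**Figure D3:**
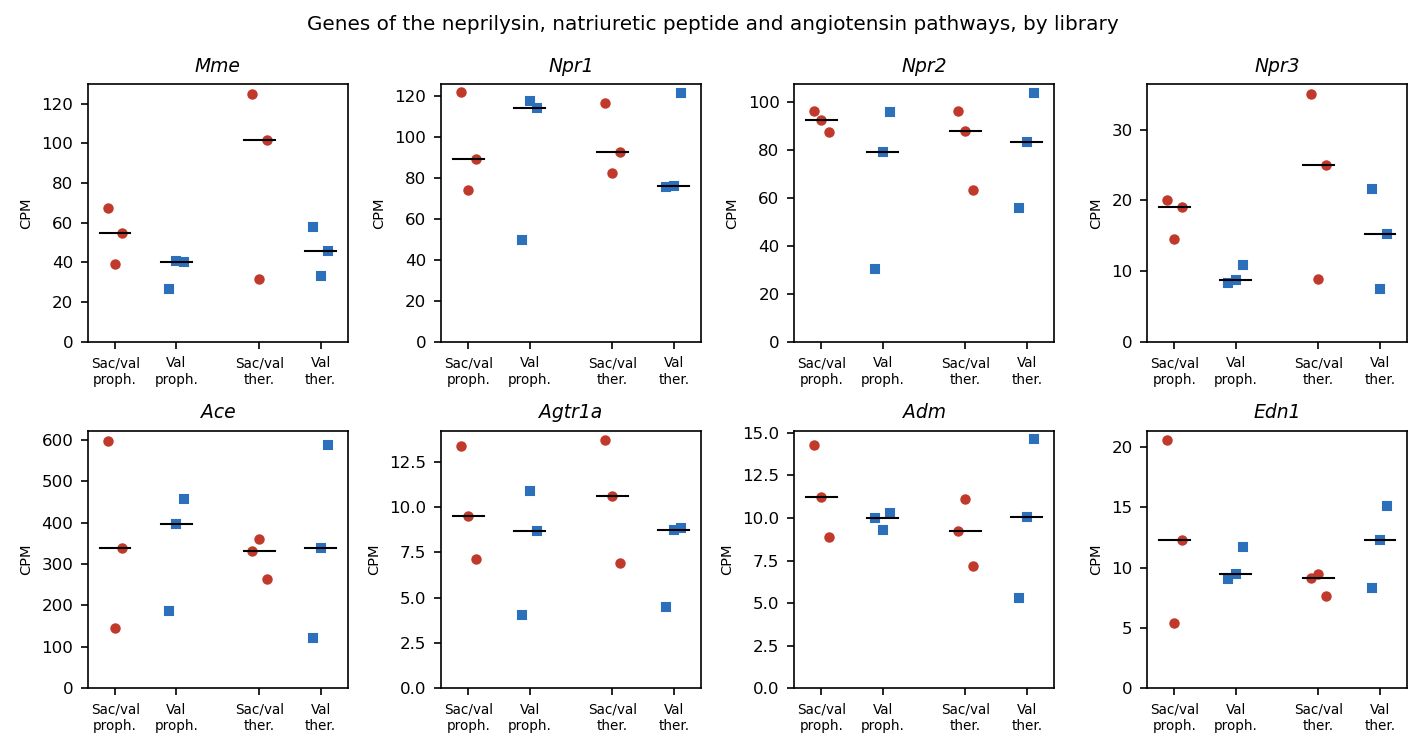
CPM of Mme, Npr1, Npr2, Npr3, Ace, Agtr1a, Adm and Edn1 in each library, by regimen, with Sac/val left of Val; each point is 1 artery and the bar is the median of 3. Sac/val and Val points overlap for all 8 genes over the 12 libraries, and Mme reaches 125 CPM in 1 Sac/val artery.

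The 8 genes at or above 5 CPM with the smallest p among those higher in Sac/val had unadjusted p from 0.00271 to 0.00444, all at an adjusted p of 0.320 in edgeR. Tmeff1, a membrane protein with follistatin and EGF-like modules, ran from 15.6 to 23.5 CPM (median 17.1) in Sac/val and from 5.88 to 13.7 CPM (median 10.9) in Val. Cmbl, a hydrolase that in human activates the prodrug olmesartan medoxomil, ran from 34.0 to 65.1 CPM (median 43.7) in Sac/val and from 14.5 to 33.4 CPM (median 28.9) in Val. For these genes every Sac/val artery was above every Val artery, with differences of 0.77 (SE 0.20) and 0.80 (SE 0.22). Tmeff1 and Cmbl are 2 of the 24 genes (0.14% of those tested) whose Sac/val libraries all exceeded all Val libraries. They were picked by p, so this separation is no further support, and the number that chance would separate was not worked out. With the 3 tissue scores as covariates the differences of Tmeff1 and Cmbl were 0.34 and 0.28.

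Mgst3, a microsomal glutathione transferase, averaged 47.9 ± 7.99 CPM in Sac/val and 29.6 ± 7.46 CPM in Val, and Rgs2, which damps Gq signals from receptors such as that of angiotensin II, averaged 146.2 ± 40.8 CPM in Sac/val and 94.9 ± 13.0 CPM in Val (SD, n = 6 each). Their differences were 0.69 (SE 0.19) and 0.62 (SE 0.18), with overlap between the groups, and 0.27 and 0.32 with the tissue scores. Fam57b, a ceramide synthesis gene of fat, had a difference of 1.00 (SE 0.27), and 0.38 with the scores. The other 3 were highest in the arteries with skeletal muscle RNA. Smtnl2, a smoothelin-like gene, had 11.0, 60.1, 75.2, 110, 6.33 and 42.1 CPM in Sac/val and 6.02 to 23.9 CPM in Val; the 4 highest were the Sac/val libraries with Acta1 above 1000 CPM. Its difference of 2.34 (SE 0.66) was 0.20 without the 5 libraries above that level. Bin1, which shapes the T-tubules of muscle, had 0.83 with all libraries and 0.25 without them, and Slc38a4, an amino acid transporter, 1.36 and 0.34.

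Among the 8 genes with the smallest p on the lower side, at p from 0.00188 to 0.00306, 5 encode parts of the T cell surface or its receptor: Cd3g, Cd96, Trdc, Tcrg-C1 and Trbv13-1. Cd3g, a chain of CD3, had 0.856 to 3.49 CPM in Sac/val (median 1.12), and 333 and 221 CPM in the 2 Val libraries high in Rag1 against 1.38 to 3.56 CPM in the other 4. Its difference was -6.00 (SE 1.59) with all 12 libraries and -0.82 without those 2. Trdc and Tcrg-C1, constant segments of the gamma-delta T cell receptor, gave -4.73 and -3.95 with all libraries and -0.86 and -1.14 without them. Segments of such families can share reads, so their single values are uncertain.

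The remaining 3 on the lower side were Igha, Gfra1 and Bmf. Igha, the heavy chain of immunoglobulin A, had 1.30 to 50.7 CPM (median 9.32) in Sac/val and 39.7 to 229 CPM (median 58.6) in Val. Of the 6 Sac/val arteries, 5 were below all Val arteries, and the difference was -2.98 (SE 0.74), or -2.61 without the 2 libraries and -1.52 with the tissue scores. Gfra1, a co-receptor of the neurotrophic factor GDNF, ran from 19.5 to 28.6 CPM (median 22.9) in Sac/val and 29.1 to 34.6 CPM (median 31.7) in Val. Every Sac/val artery was below every Val artery, the difference was -0.45 (SE 0.12, adjusted p = 0.320 in edgeR), and it was -0.42 without the 2 libraries and -0.37 with the tissue scores. Bmf, a death-promoting BCL2 relative, had 18.9 to 34.5 CPM in Sac/val and 33.3 to 74.3 CPM in Val (-0.75, SE 0.20), a difference of -0.51 without the 2 libraries and -0.36 with the tissue scores.

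Gfra1 was 1 of 27 genes (0.157%) whose Sac/val libraries were all below all Val libraries. It too was picked by p, so its separation is no further support. Of these 27, Nrgn, a calmodulin-binding protein best known in neurons, had the smallest p (0.00109, edgeR), with 1.92 ± 0.302 CPM in Sac/val and 4.26 ± 1.49 CPM in Val (SD over 6 arteries each). It lies below the 5 CPM needed to be named by rule and was singled out after its values were seen. On the higher side the 24 included Bag1, a chaperone partner of HSP70, with means of 158 CPM in Sac/val and 126 CPM in Val, and Ndufaf7, an assembly factor of respiratory complex I, with 30.9 CPM in Sac/val and 24.1 CPM in Val; these were also picked after their values were seen.

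Contractile smooth muscle genes did not separate the drugs as a group: all 21 were tested, 0 passed, 6 were higher and 15 lower in Sac/val, with a median of -0.12. Myh11 averaged 287 CPM in Sac/val and 313 CPM in Val (-0.12, SE 0.31), and Acta2, smooth muscle actin, 685 CPM in Sac/val and 801 CPM in Val (-0.23, SE 0.37). The 4 of 21 members with an unadjusted p below 0.05, Des, Tpm1, Tpm2 and Ldb3, were all higher in Sac/val, beside 6.4% of all genes tested, and are also genes of skeletal muscle. Des, desmin, had 105, 723, 668, 746, 41.0 and 322 CPM in Sac/val and 46.2 to 270 CPM in Val. The 4 highest were the 4 Sac/val libraries above 1000 CPM of Acta1, and without the 5 libraries above that level its difference of 2.29 was 0.33. Over the 15 skeletal muscle genes tested, all 15 were higher in Sac/val with a median of 2.83, and the summed level of the list of 16 was 77.3 to 27626 CPM in Sac/val and 170 to 9382 CPM in Val. Without the 5 libraries the median was -0.91. Acta1 is a gene of this list, so a fall was built into leaving out those libraries. Of 15 genes of modulated smooth muscle, 6 were higher and 9 lower, with a median of -0.06; Mgp, an inhibitor of calcification, had 927 ± 308 CPM in Sac/val and 1172 ± 487 CPM in Val (SD, n = 6 each), and Myh10, a nonmuscle myosin of dedifferentiated cells, differed by 0.41 (SE 0.32).

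Of 30 fibrillar and elastic matrix genes, 27 were lower and 3 higher in Sac/val, but 0 passed, none had an unadjusted p below 0.05, and the median was only -0.10. Col1a1, the main collagen of the scar, averaged 7731 CPM in Sac/val and 8250 CPM in Val (-0.10, SE 0.65), and Eln, elastin, 2152 CPM in Sac/val and 2159 CPM in Val (-0.20, SE 0.60). The summed level of the list was 20665 to 73306 CPM in Sac/val (median 46097) and 7592 to 92991 CPM in Val (median 61599). The 2 lowest sums, 7592 and 17045 CPM, belonged to the Val arteries high in Rag1, and without them the median of the list was -0.55. Tnc, tenascin C, a matrix protein of wound repair, had the smallest p, with 37.5 to 147 CPM (median 103) in Sac/val and 91.9 to 276 CPM (median 149) in Val. Its difference was -0.72 (SE 0.36, unadjusted p = 0.0704 in edgeR), and it was -0.24 with the tissue scores. Emilin1, an elastic fibre protein, followed at -0.30 (SE 0.37).

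The other lists of the wall gave medians near 0 over all libraries, with 0 passing members. For each of them the 2 Val libraries high in Rag1 had the lowest sums of all. Proteases and their inhibitors summed to 1983 and 1490 CPM in those 2 libraries and 7014 to 8074 CPM in the other Val libraries. Sac/val libraries held 3503 to 7391 CPM. Basement membrane genes summed to 2419 and 2535 CPM, 6085 to 8859 CPM and 4107 to 6703 CPM, in the same order. Basement membrane genes had a median of -0.09, with 7 of 23 higher; Lama3 and Lamb3, laminin chains of epithelium, gave -1.41 and -1.29 with all libraries and -0.28 and 0.02 without the 2 libraries high in Rag1. Proteases and their inhibitors had 0.02, with 16 of 29 higher, and Timp4, an inhibitor of metalloproteinases, gave 0.75 (SE 0.35). Mmp28, a metalloproteinase of quiescent tissue, gave 0.27 (SE 0.19). Genes of TGF-beta and growth factors had 0.01, with 15 of 28 higher. There Tgfbr1, the type I receptor of TGF-beta, had 60.1 ± 9.84 CPM in Sac/val and 74.9 ± 12.2 CPM in Val (-0.32, SE 0.15). Vegfa, the growth factor of endothelium, had 220 ± 66.8 CPM in Sac/val and 154.3 ± 46.4 CPM in Val (0.52, SE 0.24). Adventitial fibroblast genes had 0.01, with 8 of 15 higher, among them Ebf2 (0.51, SE 0.27) and Gsn, gelsolin (0.37, SE 0.38).

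Endothelial genes were higher in Sac/val for 18 of 23, with a median of 0.16 and 0 passing, although Pecam1, which marks endothelium, averaged 219 CPM in both groups. Kdr and Flt1, the receptors of VEGF, had medians of 72.6 and 75.4 CPM in Sac/val and 65.7 and 67.7 CPM in Val. Their differences were 0.43 (SE 0.22) and 0.40 (SE 0.21), at unadjusted p of 0.0813 and 0.0874 in edgeR. Prophylactic Val library 1 was the lowest of all 12 for each, and without it and the other library high in Rag1 the median of the list was -0.14. Nos3, which makes nitric oxide in endothelium, differed by 0.25. With the tissue scores Kdr and Flt1 were at -0.17 each.

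Interferon-stimulated genes were lower in Sac/val for 21 of 22, with 0 passing and a median of -0.39. Of the 22, 1 had an unadjusted p below 0.05, beside 9.05% of all genes tested on that side. Irf1, a transcription factor that interferon gamma induces, was that gene, and Stat2, part of the factor that carries the signal of type I interferon, had the next smallest p. Their promoters are shown because they carry the letters that interferon-driven factors read: the GAS motif TTCNNNGAA, in capitals in Irf1, and the ISRE motif (GAAA, then 2 bases of any kind, then GAAA), in capitals in Stat2, where it lies on the other strand. Each run is 5′ to 3′ on the plus strand of GRCm38.p6 from RefSeq, 250 bases ahead of the start site and 50 from it, at chr11:53769764-53770063 and chr10:128270248-128270547.
Irf1: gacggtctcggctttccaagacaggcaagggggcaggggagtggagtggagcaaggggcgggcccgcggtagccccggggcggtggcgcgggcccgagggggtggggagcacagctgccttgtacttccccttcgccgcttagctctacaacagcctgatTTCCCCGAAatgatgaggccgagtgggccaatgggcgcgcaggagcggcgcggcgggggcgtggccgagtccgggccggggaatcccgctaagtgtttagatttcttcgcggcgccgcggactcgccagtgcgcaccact
Stat2: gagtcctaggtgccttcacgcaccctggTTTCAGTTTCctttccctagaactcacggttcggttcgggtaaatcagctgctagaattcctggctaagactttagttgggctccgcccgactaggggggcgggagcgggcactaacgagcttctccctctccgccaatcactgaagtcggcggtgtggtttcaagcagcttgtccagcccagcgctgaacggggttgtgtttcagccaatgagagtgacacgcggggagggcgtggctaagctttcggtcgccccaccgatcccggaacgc
The matches lie at -90 to -82 in Irf1 and -222 to -213 in Stat2, counted from the start site. Both motifs were sought on both strands. ISRE letters were in 1131 of 32851 promoters of this length (3.44%), and in those of 10 of the 17 list genes with a promoter: Bst2, Ddx58, Ifih1, Ifit1, Ifit3, Isg15, Oas1a, Oas3, Rsad2 and Stat2. GAS letters were in 2726 promoters (8.3%) and in those of 4 of the 17: Bst2, Ifit2, Irf1 and Oas1a.

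Irf1 had 49.0 to 73.0 CPM (median 65.9) in Sac/val and 71.0 to 117.4 CPM (median 81.2) in Val, with 4 Sac/val arteries below all Val arteries. Its difference was -0.43 (SE 0.14, 95% interval -0.75 to -0.11, unadjusted p = 0.0126, adjusted p = 0.320 in edgeR), with -0.52 in the prophylactic and -0.34 in the therapeutic regimen, and -0.30 without the libraries high in Rag1. Stat2 had 45.8 to 103 CPM (median 49.9) in Sac/val and 66.0 to 110 CPM (median 91.9) in Val. Here 4 Sac/val arteries lay below every Val artery and 2 lay inside the Val range, at a difference of -0.48 (SE 0.24, unadjusted p = 0.0725 in edgeR). Genes with an ISRE match such as Isg15, a ubiquitin-like antiviral protein (-0.58), Oas3, a sensor of viral RNA (-0.54) and Ifit1, which binds viral RNA (-0.47), were lower in Sac/val at p above 0.2. Usp18, which removes Isg15 from proteins, had the lowest value of the list, -0.76.

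Summed over the list, Sac/val arteries had 1323, 467 and 419 CPM under the prophylactic and 513, 572 and 1077 CPM under the therapeutic regimen, against 936, 779 and 1047 CPM and 1056, 723 and 1042 CPM in Val. Thus 4 Sac/val arteries were below all 6 Val arteries and the other 2 were above all 6. The median of the list was -0.32 in the prophylactic and -0.37 in the therapeutic regimen, -0.33 without the 2 libraries high in Rag1 and -0.45 with the tissue scores. Without the 5 libraries above 1000 CPM of Acta1, which takes out 3 of the 4 low Sac/val arteries, it was 0.06.

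The thymocyte and T cell lists had the lowest medians of all lists. All 15 T and NK cell genes were tested, 14 lower and 1 higher, with a median of -5.79, and 12 of 15 lower at an unadjusted p below 0.05, beside 9.05% of all genes tested. All 12 thymocyte genes tested were lower, each at an unadjusted p below 0.05 (9.05% of all genes), with a median of -6.96. Neither list had a passing gene, and without the 2 Val libraries high in Rag1 the medians were -0.44 and -0.35. Rag1 is a gene of the thymocyte list, so a move of that list towards 0 was built into leaving out those libraries. The 11 B and plasma cell genes tested were all lower, with a median of -1.34, or -0.30 without those libraries. Macrophage genes were higher for 16 of 21, with a median of 0.10 over all libraries. Their sums were lowest, at 1490 and 1361 CPM, in the 2 Val libraries high in Rag1. The other Val libraries held 6744 to 9835 CPM and the Sac/val libraries 2771 to 9633 CPM. Folr2, of resident macrophages, ran from 11.3 to 43.4 CPM in Sac/val and 5.31 to 44.0 CPM in Val, a difference of 0.28. Aif1, also called IBA1, had a difference of -0.24 (SE 0.32). Without the 2 libraries high in Rag1, Folr2 was at -0.14 and Aif1 at -0.52. Neutrophil genes were lower for 11 of 13, with a median of -0.18; Mmp9, a gelatinase, gave -0.54 (SE 0.55) and Cxcr2, a chemokine receptor, -0.26 (SE 0.82). Mast cell genes were higher for 9 of 9 with a median of 0.29, and red cell genes lower for 6 of 6 with -0.47. The mast cell sums were also lowest, at 49.7 and 31.7 CPM, in the 2 Val libraries high in Rag1.

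Of 27 cytokine and adhesion genes tested, 15 were lower in Sac/val and the median was -0.11. Vcam1, through which leukocytes hold on to activated endothelium and smooth muscle, ran from 52.2 to 140 CPM (median 83.3) in Sac/val and 109.8 to 156 CPM (median 130) in Val. Of the Sac/val arteries, 4 were below every Val artery and 2 lay inside the Val range. The difference was -0.52 (SE 0.22, 95% interval -0.996 to -0.05, unadjusted p = 0.0328, adjusted p = 0.320 in edgeR), and it was -0.55 without the libraries high in Rag1 and -0.17 with the tissue scores. Cxcl12, a chemokine of stroma, averaged 403 ± 116.7 CPM in Sac/val and 541 ± 210 CPM in Val (SD, n = 6 each), at -0.41 (SE 0.28).

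Cell cycle genes had the lowest median of the process lists, -2.66, with 20 of 20 lower at an unadjusted p below 0.05, beside 9.05% of all genes tested, and 0 passing. Rrm2, a subunit of ribonucleotide reductase, had 4.22 to 15.7 CPM in Sac/val, 308 and 194 CPM in the 2 Val libraries high in Rag1, and 10.1 to 11.6 CPM in the other 4. Kif11, a spindle motor, had the same order: 1.75 to 8.84 CPM in Sac/val, 263 and 132 CPM in those 2, and 6.80 to 7.85 CPM in the rest of Val. Without the 2 libraries the median of the list was -0.37, and with the tissue scores it was 0.02.

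Genes of mitochondrial respiration were higher in Sac/val for 20 of 20, with a median of 0.60; 17 had an unadjusted p below 0.05, beside 6.4% of all genes tested on that side, and 0 passed. Ndufb8, a subunit of complex I, had 86.1 to 267 CPM (median 160) in Sac/val and 82.7 to 158 CPM (median 103) in Val, a difference of 0.67 (SE 0.25, unadjusted p = 0.0194, adjusted p = 0.320 in edgeR). Ndufv1, of the same complex, gave 0.69 (SE 0.26). The list summed to 10806, 9665, 11674, 19874, 5844 and 14488 CPM in Sac/val and to 6706, 7971, 6850, 11508, 5789 and 7667 CPM in Val. In the prophylactic regimen all 3 Sac/val arteries were above all 3 Val arteries, and in the therapeutic regimen the groups overlapped. The median was 0.73 without the libraries high in Rag1, 0.26 without those high in Acta1 and 0.09 with the tissue scores.

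Brown fat genes were also higher in Sac/val for 10 of 10, with a median of 0.83, and summed to 914 to 4441 CPM (median 2297) in Sac/val and 826 to 2251 CPM (median 1269) in Val; Ucp1, which uncouples respiration in brown fat, averaged 1047 CPM in Sac/val and 611 CPM in Val. Adipocyte genes were higher for 14 of 14, with a median of 0.64 and sums of 14368 to 56794 CPM in Sac/val and 15220 to 27156 CPM in Val. Sympathetic neuron and glomus cell genes were higher for 15 of 15 with a median of 0.73, none at an unadjusted p below 0.05. No member of these lists passed, and with the tissue scores the brown fat and adipocyte medians were -0.01 and -0.03. The adipocyte list is itself one of those scores, so a median near 0 for it was built in. Pdk4 and Sod2, both mitochondrial, belong to other lists: Pdk4, which turns glucose oxidation down, gave 1.14 (SE 0.45) and Sod2, the superoxide dismutase of the matrix, 0.62 (SE 0.24). With the scores they were at 0.05 and -0.01.

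**Figure D4:**
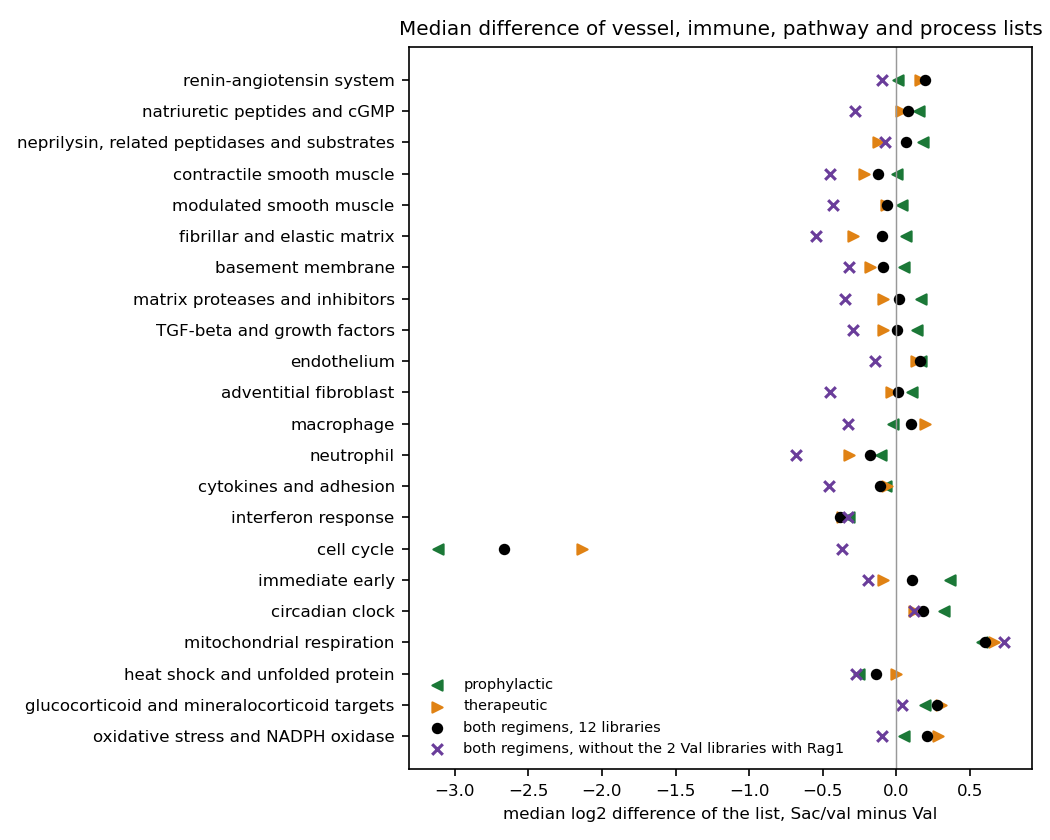
Median log2 difference of Sac/val minus Val for each vessel, immune, pathway and process list, in the prophylactic regimen, in the therapeutic regimen, over both, and over both without the 2 Val libraries high in Rag1. The cell cycle median lies between -3.12 and -2.13 in the first 3 and at -0.37 without those libraries, while mitochondrial respiration lies between 0.58 and 0.73 throughout.

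The remaining lists had 0 passing genes and medians between -0.44 and 0.27. Immediate early genes had 0.10, with 13 of 16 higher: Btg2, an antiproliferative gene, gave -1.37 with all libraries and -0.22 without those high in Rag1, and Nr4a1, a nuclear receptor, 0.37 (SE 0.31). Circadian clock genes had 0.18, with 13 of 17 higher. Arntl, the clock activator BMAL1, had 3.49 to 6.25 CPM in Sac/val, against 65.1 and 37.4 CPM in the Val libraries high in Rag1 and 4.12 to 9.09 CPM in the other 4. Cry2, a clock repressor, had 52.5 to 73.5 CPM in Sac/val and 41.4 to 58.9 CPM in Val (0.31, SE 0.12). Heat shock and unfolded protein genes had -0.14, with Dnajb1 at -0.71 and Herpud1 at 0.22, or -0.17 and 0.07 without the libraries high in Rag1. Glucocorticoid and mineralocorticoid targets had 0.27, with 11 of 14 higher; Fkbp5, a classic glucocorticoid target, gave -1.27, or -0.41 without the libraries high in Rag1. Oxidative stress genes had 0.20, and Nnt, a mitochondrial NADPH source that C57BL/6J is known to carry as a deleted allele, gave -0.56 (SE 0.22). Nnt was at -0.21 without the libraries high in Rag1 and -0.05 with the tissue scores. Schwann cell genes had 0.09, lymphatic genes 0.18, chondrocyte genes -0.30 and thyroid genes -0.44.

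By regimen, 0 of 17177 genes (0%) passed in edgeR in either, with 785 (4.57%) at an unadjusted p below 0.05 in the prophylactic and 243 (1.41%) in the therapeutic regimen. The smallest adjusted p was 0.651 and 0.988. DESeq2 called 3 of 16679 genes (0.018%) in the prophylactic regimen, Ighv14-3, Myh8 and Myl3, a slow muscle light chain, and 1 (0.006%), Ighv14-3, in the therapeutic one. Limma with voom weights called 1 gene (0.00582%) in each, Ighv1-81 and Ighv5-6, both antibody segments averaging 0.427 and 0.314 CPM over the 12 arteries. The median half-width of the interval was 0.85 in each regimen, with 3 mice against 3.

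The 4 genes with the smallest p on the higher side of the prophylactic comparison were Myh8, H19, Ptpn3 and Camk2b. Choice by p favours genes whose groups separate, so such separation is no further evidence. H19, an imprinted noncoding RNA re-expressed in injured vessels and abundant in muscle, had 125, 231 and 220 CPM in Sac/val and 17.5, 74.3 and 71.4 CPM in Val. All 3 Sac/val arteries were above all 3 Val arteries, at 1.82 (SE 0.54, unadjusted p = 0.00710, adjusted p = 0.651 in edgeR). Ptpn3, a tyrosine phosphatase, gave 0.64 (SE 0.20) and Camk2b, a calcium-dependent kinase also found in muscle, 1.29 (SE 0.43). On the lower side were Igha (-3.77), Casp8, the initiator of death receptor signals (-0.68, SE 0.22), Fchsd2, an actin-binding membrane protein (-0.51, SE 0.17), and Ppt1, a lysosomal thioesterase (-0.71, SE 0.25).

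Among the genes with the smallest p on the higher side of the therapeutic regimen was Grk3, a kinase that desensitises G protein-coupled receptors, with 62.9, 40.5 and 69.7 CPM in Sac/val and 43.4, 37.6 and 33.1 CPM in Val. The groups overlapped, at 0.60 (SE 0.22, unadjusted p = 0.0214, adjusted p = 0.988 in edgeR). Chchd6, of the mitochondrial inner membrane (0.52, SE 0.19), and Irf4, a factor of lymphocytes and fat (0.76, SE 0.28), were others. The lower side held Gfra1 (-0.59, SE 0.17), Bmf (-0.89, SE 0.28), Tbx6, a T-box factor (-0.96, SE 0.33), and Kcnj15, a potassium channel (-1.57, SE 0.58).

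The difference between regimens (therapeutic minus prophylactic of Sac/val minus Val) passed for 0 of 17177 genes (0%), with 51 (0.297%) at an unadjusted p below 0.05 and none by DESeq2 or voom. Of the 4 genes with the smallest p on the higher side, 3 encode mast cell proteases. These genes were picked by that p, so groups that separate within a regimen are part of the choice and no further evidence. How many of all genes separate 3 against 3 was not counted. Cpa3, carboxypeptidase A3, had 11.0, 3.81 and 8.80 CPM in prophylactic and 13.4, 21.6 and 14.3 CPM in therapeutic Sac/val arteries, against 6.72, 18.8 and 17.7 CPM and 1.75, 8.31 and 9.01 CPM in Val. Under the therapeutic regimen every Sac/val artery exceeded every Val artery; under the prophylactic regimen the groups overlapped. The interaction was 2.24 (SE 0.87, unadjusted p = 0.0278, adjusted p = 1.00 in edgeR). Cma1, the mouse chymase that can form angiotensin II, gave 1.96 (SE 0.81) and Mcpt4, a chymotrypsin-like protease, 1.83 (SE 0.77), and the list had a median of -0.50 in the prophylactic and 1.12 in the therapeutic regimen. Prophylactic Val library 1 and therapeutic Val library 1, both high in Rag1, were the lowest Val values of Cpa3 and Cma1 in their regimens. Mycl, a MYC relative, was the fourth, at 1.45 (SE 0.43).

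On the lower side were Egr1, Fosb, H19 and Col2a1, picked in the same way, so their separation by regimen is no further evidence either. Egr1, an early growth response factor, had 178.3, 247 and 156 CPM in prophylactic and 120, 119 and 115 CPM in therapeutic Sac/val arteries, against 108.9, 129 and 138 CPM and 128, 128 and 237 CPM in Val. Sac/val exceeded Val in every prophylactic artery and was below it in every therapeutic one, at an interaction of -1.11 (SE 0.37, unadjusted p = 0.0138, adjusted p = 1.00 in edgeR). Fosb, of the AP-1 family, gave -1.91 (SE 0.79), H19 -1.70 (SE 0.75) and Col2a1, the collagen of cartilage, -4.29 (SE 1.26). For an interaction, the 95% interval reached 1.19 to either side in the median gene.

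**Figure D5:**
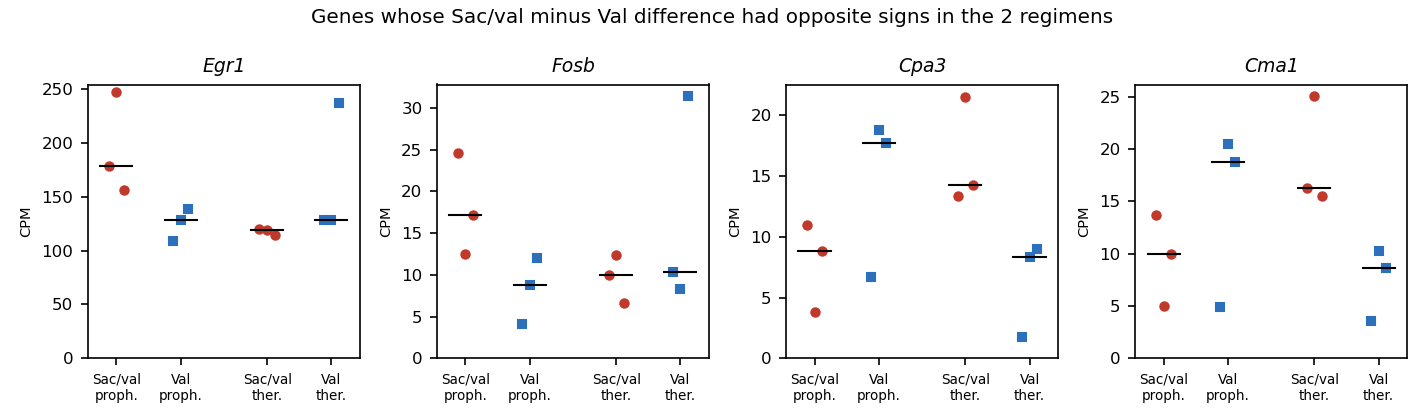
CPM of Egr1, Fosb, Cpa3 and Cma1 in each library, by regimen, with Sac/val left of Val; each point is 1 artery and the bar is the median of 3. Egr1 is above Val in the prophylactic and below Val in the therapeutic Sac/val arteries, and Cpa3 and Cma1 are above Val in the therapeutic ones.

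In 129X1 the same contrast, fitted with all 36 libraries, also passed for 0 genes, and 318 of 18628 had an unadjusted p below 0.05. The difference between strains, C57BL/6 minus 129X1 of Sac/val minus Val, passed for 0 of 18628 genes (0%) in edgeR, with 3565 (19.1%) at an unadjusted p below 0.05 and a smallest adjusted p of 0.179. DESeq2 called 435 of 17522 genes (2.48%), 50 higher and 385 lower. The 129X1 arteries also held other tissue: Rag1 ran from 0.0956 to 407.5 CPM in Sac/val and 0.189 to 393 CPM in Val, Tg reached 9540 CPM in Sac/val and 578 CPM in Val, and Acta1 reached 10791 CPM in Sac/val and 10411 CPM in Val. The part of these tissues in the strain difference was not tested. Mme gave -0.08 (SE 0.31) in 129X1 and Npr3 -0.02 (SE 0.31), with interactions of 0.86 (SE 0.43) and 0.84 (SE 0.45) at adjusted p of 0.275 and 0.294 in edgeR. Tmeff1 and Cmbl gave -0.15 and -0.31 in 129X1.

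Among the genes with the smallest strain interaction p on the higher side, Mgst3 had 1.28 (SE 0.31, unadjusted p = 0.000382, adjusted p = 0.179 in edgeR), with -0.56 in 129X1. Sec61a2, of the protein translocation channel, had 0.58 (SE 0.15), and Pink1, a kinase of mitochondrial quality control, 0.91 (SE 0.24). On the lower side, Tram1, also of the translocation channel, had -0.65 (SE 0.16) and Ppt1 -0.70 (SE 0.19). Tram1 and Ppt1 are among the 27 genes (0.157%) whose C57BL/6 Sac/val arteries were all below all Val arteries. Psrc1, a spindle protein (-2.29, SE 0.58), and Dgkeos, annotated opposite to Dgke (-7.90, SE 2.07), followed. Whether counting used strand is not given in the sources used here, so reads of Dgkeos and Dgke cannot be told apart. Both were highest in the 2 C57BL/6 Val libraries high in Rag1, at 18.5 and 13.5 CPM for Psrc1 and 92.2 and 59.7 CPM for Dgkeos.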

How the data were processed

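RNA-seq libraries (TruSeq Stranded mRNA, Trizol and RNeasy Micro extraction, HiSeq2500, per the labels' protocols) were made from single ligated carotid arteries. The authors deposited whole-number read counts per gene symbol. Trimmomatic 0.36, STAR 2.5.2b, GRCm38 and featureCounts of Subread 1.5.0p3 are named in the submitters' processing notes; which annotation release was counted, and whether by strand, is not given in the sources used here. Of 49568 symbols, 47240 matched the GENCODE annotation used for positions. All libraries of each strain, treatment and regimen formed a group of 3, named by accession order.

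Counts were filtered with filterByExpr, scaled by TMM and tested with edgeR 4.0.16 (quasi-likelihood, R 4.3.3), regimen and treatment as terms over 12 libraries, with Benjamini-Hochberg adjustment over all genes tested and a threshold of 0.05. Each regimen and their difference came from a fit of group means over the same libraries, and the strain difference from a fit of 12 group means over 36. SE were derived from the F statistic. DESeq2 1.42.0 and limma 3.58.1 (voom with quality weights) were alternatives, as were other size factors, no filter, more libraries in the fit, a robust prior, tissue scores, animal number, and leaving out libraries at or above 10 CPM of Rag1, 100 CPM of Tg or 1000 CPM of Acta1, or each library in turn. The scripts were tested on simulated data. Figures were drawn with matplotlib 3.10.9 in Python 3.11.15.

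The comparison and the gene lists were chosen with earlier results of these data known. Genes named were 20 fixed pathway genes, the 8 of smallest p per direction, up to 2 per list and 4 per direction in each regimen and interaction, at 5 CPM or more. Predicted genes and pseudogenes were left out of the smallest-p choices (1 on the higher side, 0 on the lower). Other genes are said to have been picked after their values were seen, or illustrate a list. A few genes the rule names are not reported here.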

Additional observations from a re-analysis of the deposited data

Results flagged for a closer look

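Of 224 groups of 6 libraries examined, each a named gene or summed list in 1 treatment, 11 held a library set apart from the other 5 by more than Dixon's 95% critical value for its gap over its range on the log2 scale; chance sets apart about 1 group in 20. In Sac/val, therapeutic library 3 had 63.4 CPM of Npr2 (others 87.3 to 96.4 CPM), and prophylactic library 3 had 3.49 CPM of Cd3g (others 0.856 to 1.28 CPM). The B and plasma cell list summed to 663 CPM in prophylactic Sac/val library 1 and 217 to 311 CPM in the other 5.

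Of the 8 in Val, 5 concerned prophylactic library 1, which was high in Rag1. It was lowest for Cmbl at 14.5 CPM (others 24.7 to 33.4 CPM), H19 at 17.5 CPM (others 55.8 to 102 CPM), Kdr at 27.3 CPM (others 59.3 to 71.1 CPM) and Flt1 at 36.2 CPM (others 67.2 to 76.9 CPM), and highest for Tram1 at 188 CPM (others 131.4 to 140 CPM). Therapeutic Val library 1, with Acta1 at 2113 CPM, was highest for Smtnl2 at 23.9 CPM (others 6.02 to 9.44 CPM) and Des at 270 CPM (others 46.2 to 71.8 CPM). Therapeutic Val library 3 had 237 CPM of Egr1 (others 108.9 to 138 CPM).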

How the results depend on the processing

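No paired analysis was possible because the labels give no replicate numbers that groups share. In edgeR, 0 genes passed for Sac/val minus Val under each setting and without each of the 12 libraries in turn. The number at an unadjusted p below 0.05 was 2654 with all 12 libraries and 4346 with all 36 libraries in the fit. It was 1022 without prophylactic Val library 1, 1527 without therapeutic Sac/val library 1 and 1654 without therapeutic Val library 1. It was 48 without the 5 libraries high in Acta1 and 204 with tissue scores. The former leaves out 4 of the 6 Sac/val libraries and 1 Val library, and the scores add 3 terms to the fit. How much of the fall came from fewer arteries or added terms was not tested. With voom, which is limma's test and not edgeR's, the number was 3327. The split at an unadjusted p below 0.05 was 1100 higher and 1554 lower in edgeR, against 1430 and 634 without the 2 libraries high in Rag1. With voom it was 2211 and 1116. Depth was similar across libraries, and the number of arteries limits the intervals. The causes of the changes below were not tested. Unless said otherwise, the genes listed crossed 0 and moved by more than the SE of their reported difference; smaller crossings are in the sign counts at the end.

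DESeq2 called 4 genes over both regimens, 3 in the prophylactic and 1 in the therapeutic regimen and 435 for the strain difference. With voom, 1 gene passed in each regimen, and these log2 differences lay on the other side of 0 or far from those reported: Agtr1a -0.082, Npr1 -0.19, Npr2 -0.051, Cpa3 -0.56, Cma1 -0.45, Mcpt4 -0.35, Ramp1 0.19, Lamb3 0.016, Gsn -0.13, Folr2 -0.31, and the medians of renin-angiotensin -0.13, T and NK cell -0.24, thymocyte 0.29, B and plasma cell -0.26, chondrocyte -0.063, mast cell -0.35 and cell cycle -0.42. With tissue scores they were Mme -0.015, Npr1 -0.32, Npr2 -0.14, Prkg1 -0.32, H19 -0.015, Pde2a -0.0073, Ramp1 0.17, Myh10 -0.13, Timp4 -0.014, Vegfa -0.093, Kdr -0.17, Flt1 -0.17, Ebf2 -0.041, Rrm2 0.082, Dnajb1 0.0197, Sod2 -0.013, and T and NK cell -0.42, thymocyte -0.41, B and plasma cell -0.14, skeletal muscle -0.14, adipocyte -0.033, brown fat -0.015, chondrocyte -0.068, cell cycle 0.0205 and circadian -0.071. The scores are means of the thymocyte, skeletal muscle and adipocyte lists, so moves of these lists towards 0 with the scores were built in. With animal number as a covariate, T and NK cell was -3.05, thymocyte -3.66 and chondrocyte -0.063. The thyroid median was -5.26 with no filter, -5.31 with all 36 libraries and -5.74 with 18. Without the libraries high in Rag1, renin-angiotensin was -0.10, T and NK cell -0.44, thymocyte -0.35, B and plasma cell -0.30, cell cycle -0.37, Npr2 -0.071, Ramp1 0.16 and Lamb3 0.023; Npr1 at -0.17, Adm -0.12, Cpa3 -0.24, Cma1 -0.10, Mcpt4 -0.099, Egr1 -0.087, Fosb -0.19 and Folr2 -0.14 crossed 0 and moved by less than that SE. Without those high in Tg, thyroid was 0.26 and Calca 0.24. Rag1, Tg and Acta1 are genes of the thymocyte, thyroid and skeletal muscle lists. Moves of these lists were therefore built into leaving out libraries by those genes.

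The last 2 settings were added after seeing the data. Without libraries high in Rag1 or Tg, renin-angiotensin was -0.032, T and NK cell -0.24, thymocyte 0.56, B and plasma cell -0.46, cell cycle -0.31, circadian -0.017, Npr2 -0.16, Prkg1 -0.058, Adm -0.23, Bdkrb2 -0.054, Egr1 -0.26, Fosb -0.51, Ramp1 0.14 and Lamb3 0.34. Without those high in Acta1, T and NK cell was -2.59, thymocyte -2.99, B and plasma cell -0.46, thyroid -2.44, skeletal muscle -0.91, chondrocyte 0.041, cell cycle -1.14, Agt -0.17, Prkg1 -0.16, Calca 0.61, Edn1 0.40 and Nr4a1 -0.12. Leaving out each library in turn gave -1.52 to -0.64 for B and plasma cell, -6.51 to -0.17 for thyroid and -0.99 to 0.17 for Calca, the last without therapeutic Val library 1. Of 100 named genes, 81 kept their sign with tissue scores, 89 with voom, 92 without the libraries high in Acta1 and between 95 and 100 without each library in turn; of the 99 tested without the libraries high in Rag1, 88 did, of 99 without those high in Tg, 94 did, and of 99 without those high in Rag1 or Tg, 87 did.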
